A study of Mus musculus with 78 samples.

Results

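Glucocorticoid signalling in the brain was followed here through 9 genes of the 55367 listed in the deposited count tables. They are the corticosteroid receptor genes Nr3c1 and Nr3c2 and 7 genes known to be induced through these receptors, namely Fkbp5, Sgk1, Tsc22d3, Zbtb16, Mt1, Mt2 and Cdkn1a. The genes were chosen by name, with earlier results of these data known, and all 9 are present in both tables, one for each sex. The study compared adult C57BL/6J mice with a constitutive deletion in Acss2 (KO) and wild-type mice (WT) in 7 dissected brain regions, and its stated question is how loss of ACSS2, which joins acetate to coenzyme A, acts on alcohol drinking, with male mice and the ventral striatum named in its title. The deletion was made with CRISPR/Cas9 guides on either side of exon 3 to exon 7, is present in every cell, and was backcrossed to C57BL/6J before use. All mice of both genotypes and both sexes were single-housed and drank ethanol under the drinking-in-the-dark schedule, a short-access test of heavy voluntary intake. After a habituation of 1 week they had ethanol at 15% beside water in sessions of 2 h, with a last session of 4 h, and in the following week ethanol without water during the sessions. No mouse without ethanol was analysed here, so the values below are those of drinking mice, and a response of these genes to ethanol or to handling is outside the comparisons.

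Corticosterone, the main glucocorticoid of mice, enters brain cells and binds a pair of nuclear receptors. The mineralocorticoid receptor, encoded by Nr3c2, binds it with higher affinity and is known for its high expression in hippocampal neurons, while the glucocorticoid receptor, encoded by Nr3c1, is expressed widely in neurons and glia and is occupied mainly when hormone is high. Both act on DNA at glucocorticoid response elements. Fkbp5 encodes a co-chaperone of HSP90 that lowers the affinity of the glucocorticoid receptor for its hormone. Sgk1 encodes a kinase, Tsc22d3 encodes GILZ, a protein known for restraint of inflammatory transcription, Zbtb16 encodes the transcription factor PLZF, Mt1 and Mt2 encode metallothioneins that bind zinc and copper, and Cdkn1a encodes the cell-cycle inhibitor p21. Each of them also answers to other signals, metals for Mt1 and Mt2 and DNA damage for Cdkn1a among them.

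Upstream sequences of Sgk1 and Mt2 are shown because they hold examples of a glucocorticoid element (Sgk1) and of metal response elements (Mt2). Windows of 300 bases around annotated starts, 250 before and 50 after, were taken from RefSeq on GRCm38.p6 for 7 of the 9 genes. They were searched on both strands for a full palindromic glucocorticoid element (AGAACA and TGTTCT parted by any 3 bases), its single arm (TGTTCT, which is also contained in the full one) and a pair of metal response element cores (TGCGCNC and TGCACNC). The full element was found in 1 member, Sgk1, and in 3 of the 32851 windows searched, or 0.00913%. It lies at chr10:21993701-21993715, 189 bases before the start of a short Sgk1 transcript, and in longer GENCODE transcripts of Sgk1 that place is intronic. The 250 bases at chr10:21993640-21993889 (GRCm38.p6, plus strand, 5′ to 3′) are printed with the element in capitals.
Sgk1: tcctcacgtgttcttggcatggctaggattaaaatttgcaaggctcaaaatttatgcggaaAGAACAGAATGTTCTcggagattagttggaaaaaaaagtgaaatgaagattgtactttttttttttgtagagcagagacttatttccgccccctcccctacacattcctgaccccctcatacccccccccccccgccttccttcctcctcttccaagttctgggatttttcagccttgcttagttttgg
The Mt2 window held 4 metal element cores and the Mt1 window 3. At least 3 were found in 1.97% of all windows and at least 4 in 0.517%. The 250 bases before the Mt2 start, at chr8:94172368-94172617 (GRCm38.p6, plus strand, 5′ to 3′), hold 3 of the 4 cores, in capitals, and the last of these is the reverse complement of a core.
Mt2: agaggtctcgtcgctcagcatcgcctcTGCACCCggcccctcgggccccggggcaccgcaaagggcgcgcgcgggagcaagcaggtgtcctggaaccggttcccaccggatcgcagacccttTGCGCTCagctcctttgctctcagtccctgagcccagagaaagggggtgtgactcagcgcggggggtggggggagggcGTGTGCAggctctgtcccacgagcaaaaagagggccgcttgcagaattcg
The single arm occurred in 19% of all windows, so its presence in windows of Sgk1 and Tsc22d3 sets them apart little. A match describes letters only, and binding was not measured.

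Counts came from 78 poly(A) libraries made from 300 ng of total RNA each, from 12 mice with 3 per sex and genotype. Depth fell into separate ranges by region. In the amygdala, the dorsal hippocampus and both parts of the striatum, 47 libraries had total counts from 4454420 to 14487778. In cortex, ventral hippocampus and prefrontal cortex, 31 libraries had total counts from 629635 to 1228828, and there 3 counts, the smallest amount treated as detected, correspond to 2.44 to 4.76 CPM (counts scaled to the column total) against 0.207 to 0.674 CPM in the deeper set. Regions were therefore tested within each set. Acss2 lay between 0.971 and 14 CPM in the 40 KO libraries and between 35.9 and 73.8 CPM in the 38 WT libraries, with no overlap. One library labelled female, of the prefrontal cortex of WT mouse 23, had Xist at 0 and Ddx3y at 73.4 CPM, while the other 38 female libraries had Xist from 358 to 1077 CPM. For 8 libraries the summed CPM of 8 striatal projection neuron markers (such as Drd1, Drd2 and Penk) lay on the other side of 1000 CPM from their region. These were the ventral striatum of mice 10 and 13, the dorsal striatum of mice 10 and 23, the amygdala and ventral hippocampus of mouse 6, and the prefrontal cortex of mice 1 and 5. The KO comparisons with both sexes, the region comparisons and the test between mice were also computed without these 8 libraries. They were computed as well without the library labelled female with Ddx3y, where they held it. The sex difference and the pairs of members between mice were also computed without the 8 libraries alone. The other values, such as levels, marker counts and correlations between single libraries, were not recomputed.

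Across the 7 regions the members followed different maps, and the hippocampus stood out for 5 of them. Of the 9 members, 5 were higher and 1 lower in the dorsal hippocampus than in the mean of the other deeper regions (edgeR quasi-likelihood test, Benjamini-Hochberg adjusted p under 0.05), where 26.8% of all genes were called higher and 25.8% lower. In the amygdala 1 was higher and 5 were lower (background 25.6% and 23.9%), in the dorsal striatum 3 and 3 (24.5% and 24.6%), and in the ventral striatum 1 and 4 (21.1% and 20.6%). In the shallower set, 4 were higher and 2 lower in the ventral hippocampus (13.3% and 12.9%), 2 and 2 in the cortex (19.8% and 18.6%), and 1 and 5 in the prefrontal cortex (18.7% and 17.9%). The members' median log2 difference was 0.57 in the dorsal hippocampus, where that of all genes was -0.008, and lay between -0.34 and 0.16 in the other regions. Differences between dissected regions were thus common among all genes, and the member counts are read against that. Each region also enters the mean that the others of its set are compared with. A gene high in a single region is therefore pushed towards lower values in the rest, and the calls of a set are not independent. In bulk tissue, fewer cells of a type and less RNA per cell cannot be told apart.

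**Figure D1:**
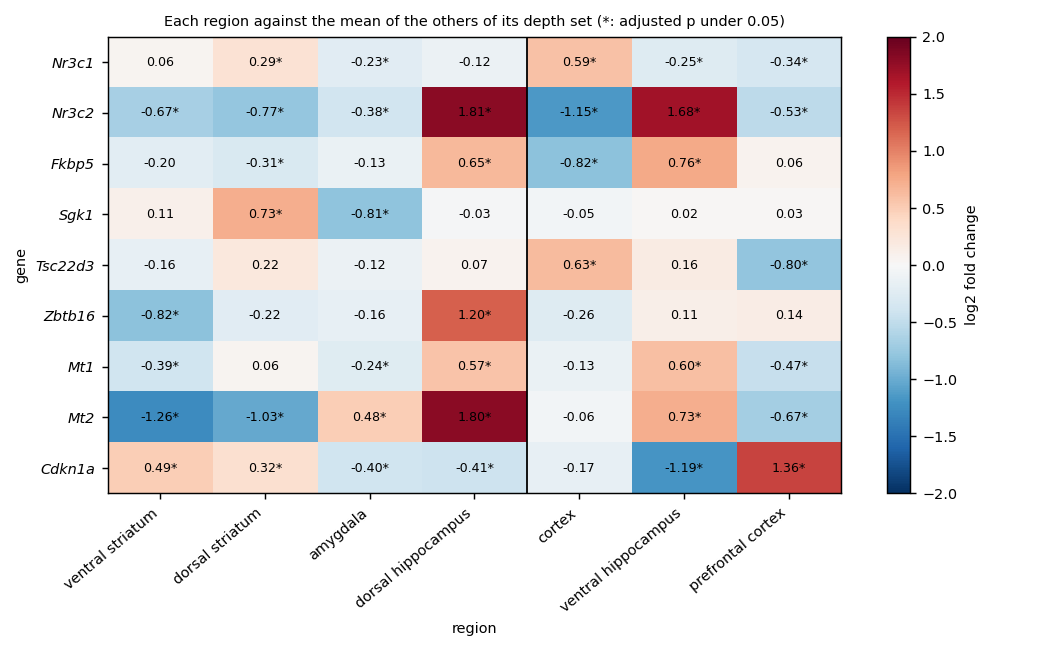
Heat map of the log2 fold change of each of the 9 genes (rows) in each region (columns) over the mean of the other regions of its depth set, with the deeper set left of the black line and the shallower set right of it; colour runs from blue (lower) to red (higher) and a star marks an adjusted p under 0.05. The darkest red cells are Nr3c2 and Mt2 in the dorsal hippocampus (1.81 and 1.80) and Nr3c2 in its ventral counterpart (1.68), while the Nr3c1 row stays between -0.34 and 0.59.

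The receptor genes differed in how evenly they were expressed. Nr3c1 (chromosome 18, protein coding) had means from 102 ± 10.2 CPM (amygdala) (SD, n = 11) to 152 ± 20.97 CPM (cortex) (n = 11). Between these lay the dorsal hippocampus at 105 ± 14.1 (n = 12), the ventral hippocampus at 105 ± 17.01 (n = 12), the prefrontal cortex at 106 ± 16.1 (n = 8), the ventral striatum at 120 ± 21.6 (n = 12) and the dorsal striatum at 132 ± 17.4 CPM (n = 12). None of the 6 gaps between neighbours in this order exceeded the larger SD of the pair. Nr3c1 was higher in the cortex by a log2 fold change of 0.59 (SE 0.086, edgeR adjusted p = 1.31e-06) and in the dorsal striatum by 0.29 (SE 0.068, adjusted p = 0.000539). It was lower in the amygdala (log2 -0.23, edgeR adjusted p = 0.00686), the prefrontal cortex (-0.34, adjusted p = 0.00641) and the ventral hippocampus (-0.25, adjusted p = 0.0273), and the last call was lost when any of mice 4, 5, 12, 13 or 23 was left out (edgeR adjusted p from 0.0503 to 0.0825).

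Nr3c2 (chromosome 8: 76899442 to 77245012, plus strand, protein coding) was the hippocampal receptor gene of the pair. In the dorsal hippocampus (12 libraries) its lowest, median and highest values were 93.0, 191 and 281 CPM, and in the 12 of the ventral hippocampus 71.6, 146 and 207 CPM. In the 11 cortex libraries it lay between 24.7 and 47.5 CPM. The hippocampal and cortical libraries therefore did not overlap. The lowest dorsal hippocampus value was that of female WT mouse 23. That library had a hippocampal marker sum of 253 CPM, against 525 to 1016 CPM in the others of the region, and was kept. Means were 201 ± 50.3 CPM (dorsal hippocampus), 134 ± 44.8 (ventral hippocampus), 68.9 ± 29.1 (amygdala), 58.5 ± 8.68 (ventral striatum), 54.1 ± 9.71 (dorsal striatum), 49.2 ± 16.6 (prefrontal cortex) and 35.3 ± 6.23 (cortex). Both gaps at the top of this order exceeded the larger SD, and the other 4 did not. The log2 fold change was 1.81 for the dorsal hippocampus (SE 0.116, edgeR adjusted p = 5.59e-17) and 1.68 for the ventral hippocampus (SE 0.133, adjusted p = 8.47e-12). In the other 5 regions Nr3c2 was lower than the mean of the rest of the set, which each time holds a part of the hippocampus. The values ran from -1.15 in the cortex (SE 0.156, edgeR adjusted p = 3.65e-07) to -0.38 in the amygdala (SE 0.133, adjusted p = 0.017). The amygdala mean was still above both striatal means, and the prefrontal mean above that of the cortex. The amygdala call was lost without mouse 2 or mouse 12 (edgeR adjusted p = 0.0675 and 0.0739). The hippocampal markers, chosen because they define this tissue, were higher for 4 of 4 tested in the dorsal and 3 of 3 in the ventral hippocampus. After group means were removed, their sum had Pearson's r = 0.47 with Nr3c2 over the 47 deeper libraries and 0.43 over 30 shallower ones. The part of the dissected cell mixture in the Nr3c2 differences was not tested.

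Fkbp5 (chromosome 17: 28399094 to 28517527, minus strand, protein coding), the receptor's own inhibitory co-chaperone, had the same order of region means as Nr3c2, with the dorsal hippocampus first and the cortex last. Its lowest, median and highest values were 50.9, 88.3 and 115 CPM in the dorsal hippocampus and 22.3, 29.7 and 48.5 CPM in the cortex, again without overlap. The lowest dorsal hippocampus value was again that of mouse 23. The means were 88.0 ± 17.5 CPM (dorsal hippocampus), 68.6 ± 15.6 (ventral hippocampus), 60.9 ± 9.44 (amygdala), 58.9 ± 10.1 (ventral striatum), 54.9 ± 9.72 (dorsal striatum), 51.4 ± 11.9 (prefrontal cortex) and 31.96 ± 8.74 (cortex). The first and last gaps exceeded the larger SD. Fkbp5 was higher in the dorsal hippocampus by a log2 fold change of 0.65 (SE 0.087, edgeR adjusted p = 3.28e-08) and by 0.76 in the ventral part (SE 0.111, adjusted p = 2.3e-06). It was lower in the cortex by -0.82 (SE 0.125, edgeR adjusted p = 2.52e-06) and in the dorsal striatum by -0.31 (SE 0.092, adjusted p = 0.00485). In the ventral striatum its log2 difference was -0.20 (edgeR adjusted p = 0.0681), and -0.20 with the mouse as a block (adjusted p = 0.0476).

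The kinase gene Sgk1 (chromosome 10: 21882184 to 21999903, plus strand, protein coding), whose element is printed above, had its highest mean in the dorsal striatum and varied widely between libraries of a region. Its values ran from 76.5 to 237 CPM with a median of 148 in the dorsal striatum and from 37.6 to 134 CPM with a median of 50.3 in the amygdala, so that the regions overlapped. The means were 149 ± 50.5 CPM (dorsal striatum), 109 ± 33.3 (ventral striatum), 97.5 ± 32.01 (dorsal hippocampus), 78.3 ± 44.98 (prefrontal cortex), 70.4 ± 36.4 (amygdala), 69.7 ± 26.6 (ventral hippocampus) and 66.8 ± 16.8 (cortex). No gap between neighbours exceeded the larger SD. The log2 fold change was 0.73 in the dorsal striatum (SE 0.151, edgeR adjusted p = 0.0001) and -0.81 in the amygdala (SE 0.171, adjusted p = 0.000146), and in the other 5 regions Sgk1 lay between -0.05 and 0.11 and was not called. Oligodendrocyte markers moved with these calls: 11 of 11 were higher in the dorsal striatum (median log2 0.98) and 11 of 11 were lower in the amygdala (median -0.99). Their part in the Sgk1 differences was not tested.

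Tsc22d3 (chromosome X: 140539528 to 140600659, minus strand, protein coding), which encodes GILZ, set the cortex and the prefrontal cortex apart. Its 11 cortex libraries lay between 94.7 and 151 CPM with a median of 116, and its 8 prefrontal libraries between 46.6 and 81.4 CPM with a median of 66.7, without overlap. The means were 121 ± 17.9 CPM (cortex), 101 ± 22.6 (ventral hippocampus), 92.7 ± 17.6 (dorsal striatum), 84.8 ± 29.8 (dorsal hippocampus), 79.2 ± 23.5 (amygdala), 78.4 ± 22.98 (ventral striatum) and 67.1 ± 10.4 (prefrontal cortex), with no neighbouring gap over the larger SD. It was higher in the cortex by a log2 fold change of 0.63 (SE 0.088, edgeR adjusted p = 5.64e-07) and lower in the prefrontal cortex by -0.80 (SE 0.101, adjusted p = 3.81e-07). In the 4 deeper regions and the ventral hippocampus it lay between -0.16 and 0.22 and was not called. Astrocyte markers were higher for 3 and lower for 2 of 7 in the cortex and lower for 3 of 7 in the prefrontal cortex, and their part in the Tsc22d3 differences was not tested.

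Zbtb16 (chromosome 9: 48654297 to 48836222, minus strand, protein coding), the gene of the transcription factor PLZF, was highest in the dorsal hippocampus and lowest in the ventral striatum. Its lowest, median and highest values were 49.1, 62.7 and 70.3 CPM in the dorsal hippocampus and 9.20, 22.6 and 38.4 CPM in the ventral striatum, without overlap. The means were 61.3 ± 7.33 CPM (dorsal hippocampus), 52.4 ± 11.4 (prefrontal cortex), 49.7 ± 15.7 (ventral hippocampus), 40.4 ± 11.7 (cortex), 31.2 ± 9.74 (amygdala), 30.7 ± 15.9 (dorsal striatum) and 23.1 ± 8.26 (ventral striatum), and no neighbouring gap exceeded the larger SD. The log2 fold change was 1.20 in the dorsal hippocampus (SE 0.153, edgeR adjusted p = 1.02e-08) and -0.82 in the ventral striatum (SE 0.173, adjusted p = 0.000202). In the dorsal striatum the difference of -0.22 was not called (edgeR adjusted p = 0.269), but without the 8 libraries that stood apart by striatal markers it was -0.46 (adjusted p = 0.00938). Among the 8 are the dorsal striatum libraries of mice 10 and 23, with striatal sums of 356 and 196 CPM against 3721 to 7385 CPM in the other 10. The 8 also hold ventral striatum and amygdala libraries of the comparison mean and were left out together. Which of them the change goes with was not tested.

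The metallothionein genes Mt2 (chromosome 8: 94172664 to 94173568, plus strand) and Mt1 (chromosome 8: 94179082 to 94180327, plus strand), both protein coding, lie next to each other and are related in coding sequence, and how reads that fit both were counted is not given in the sources used here. Mt2 separated the hippocampus from the striatum. In the dorsal hippocampus its lowest, median and highest values were 92.1, 129 and 190 CPM, and in the ventral striatum 15.0, 28.1 and 39.2 CPM, without overlap. The Mt2 means were 132 ± 25.6 CPM (dorsal hippocampus), 127 ± 38 (ventral hippocampus), 84.6 ± 16.8 (cortex), 70.3 ± 18.6 (amygdala), 69.1 ± 12.6 (prefrontal cortex), 31.6 ± 8.69 (dorsal striatum) and 28.4 ± 6.23 (ventral striatum). The gaps between ventral hippocampus and cortex and between prefrontal cortex and dorsal striatum exceeded the larger SD. Its log2 fold change was 1.80 in the dorsal hippocampus (SE 0.094, edgeR adjusted p = 9.76e-20), 0.48 in the amygdala (SE 0.102, adjusted p = 0.000123), -1.26 in the ventral striatum (SE 0.111, adjusted p = 1.62e-11) and -1.03 in the dorsal striatum (SE 0.109, adjusted p = 3.13e-10). In the shallower set it was 0.73 in the ventral hippocampus (SE 0.115, edgeR adjusted p = 6.89e-06) and -0.67 in the prefrontal cortex (SE 0.134, adjusted p = 0.000193).

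Mt1 varied less across regions than its neighbour. The Mt1 means were 221 ± 56.0 CPM (ventral hippocampus), 204 ± 37.7 (dorsal hippocampus), 163 ± 42.96 (dorsal striatum), 152 ± 32.3 (cortex), 143 ± 30.1 (prefrontal cortex), 141 ± 37.4 (amygdala) and 130 ± 26.5 (ventral striatum), with no neighbouring gap over the larger SD. Mt1 was higher in the dorsal hippocampus (log2 0.57, SE 0.093, edgeR adjusted p = 1.56e-06) and the ventral hippocampus (0.60, SE 0.104, adjusted p = 3.59e-05). It was lower in the ventral striatum (-0.39, SE 0.099, edgeR adjusted p = 0.0014) and the prefrontal cortex (-0.47, SE 0.120, adjusted p = 0.00272). In the amygdala it was lower by -0.24 (SE 0.101, edgeR adjusted p = 0.0416), a call that was lost with the mouse as a block (-0.23, adjusted p = 0.0704) and when any of 8 of the 12 mice was left out. Per kilobase of exon, Mt2 had 225 and Mt1 164 CPM per kb in the dorsal hippocampus. Their order cannot be read from this, because the joined annotated exons of Mt1 (1246 bases) cover its gene from end to end. Those of Mt2 have 588 bases. Both stood far above the other members per length, of which Nr3c2 there had 31.02, Zbtb16 11.6 and Fkbp5 9.30 CPM per kb. An antisense gene, Gm45774, overlaps Mt2, and since the library kit named in the labels does not mark strand, reads of the pair cannot be told apart; antisense or nested genes overlap Nr3c2, Fkbp5 and Cdkn1a too. Astrocyte markers were higher for 4 of 7 in the dorsal and for 6 of 7 in the ventral hippocampus and lower for 3 of 7 in the ventral striatum and 3 of 7 in the prefrontal cortex, and their part in the metallothionein differences was not tested.

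Cdkn1a (chromosome 17: 29090976 to 29100727, plus strand, protein coding), the p21 gene, was the least abundant member. In the prefrontal cortex its lowest, median and highest values were 9.504, 16.7 and 60.4 CPM, and in the ventral hippocampus it had 1 to 16 counts per library, the lowest of them under the 3 counts treated as detected. The means were 23.4 ± 16.7 CPM (prefrontal cortex), 12.6 ± 3.39 (ventral striatum), 11.2 ± 2.20 (dorsal striatum), 10.6 ± 4.28 (cortex), 7.89 ± 2.52 (amygdala), 7.59 ± 2.23 (dorsal hippocampus) and 6.66 ± 3.80 (ventral hippocampus), and no neighbouring gap exceeded the larger SD. It was higher in the prefrontal cortex (log2 1.36, SE 0.273, edgeR adjusted p = 0.00022) and the ventral striatum (0.49, SE 0.126, adjusted p = 0.00169). In the prefrontal cortex the 4 WT libraries had a mean of 32.6 ± 20.2 CPM and the 4 KO libraries 14.1 ± 3.76 CPM. The region fit held no term for a genotype difference within a region. Cdkn1a was lower in the ventral hippocampus (-1.19, SE 0.297, edgeR adjusted p = 0.00257), the dorsal hippocampus (-0.41, SE 0.132, adjusted p = 0.0081) and the amygdala (-0.40, SE 0.135, adjusted p = 0.0133). The dorsal striatum difference of 0.32 (SE 0.126, edgeR adjusted p = 0.0335) was no longer called without mouse 2, 11 or 13 (adjusted p from 0.0523 to 0.0939).

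**Figure D2:**
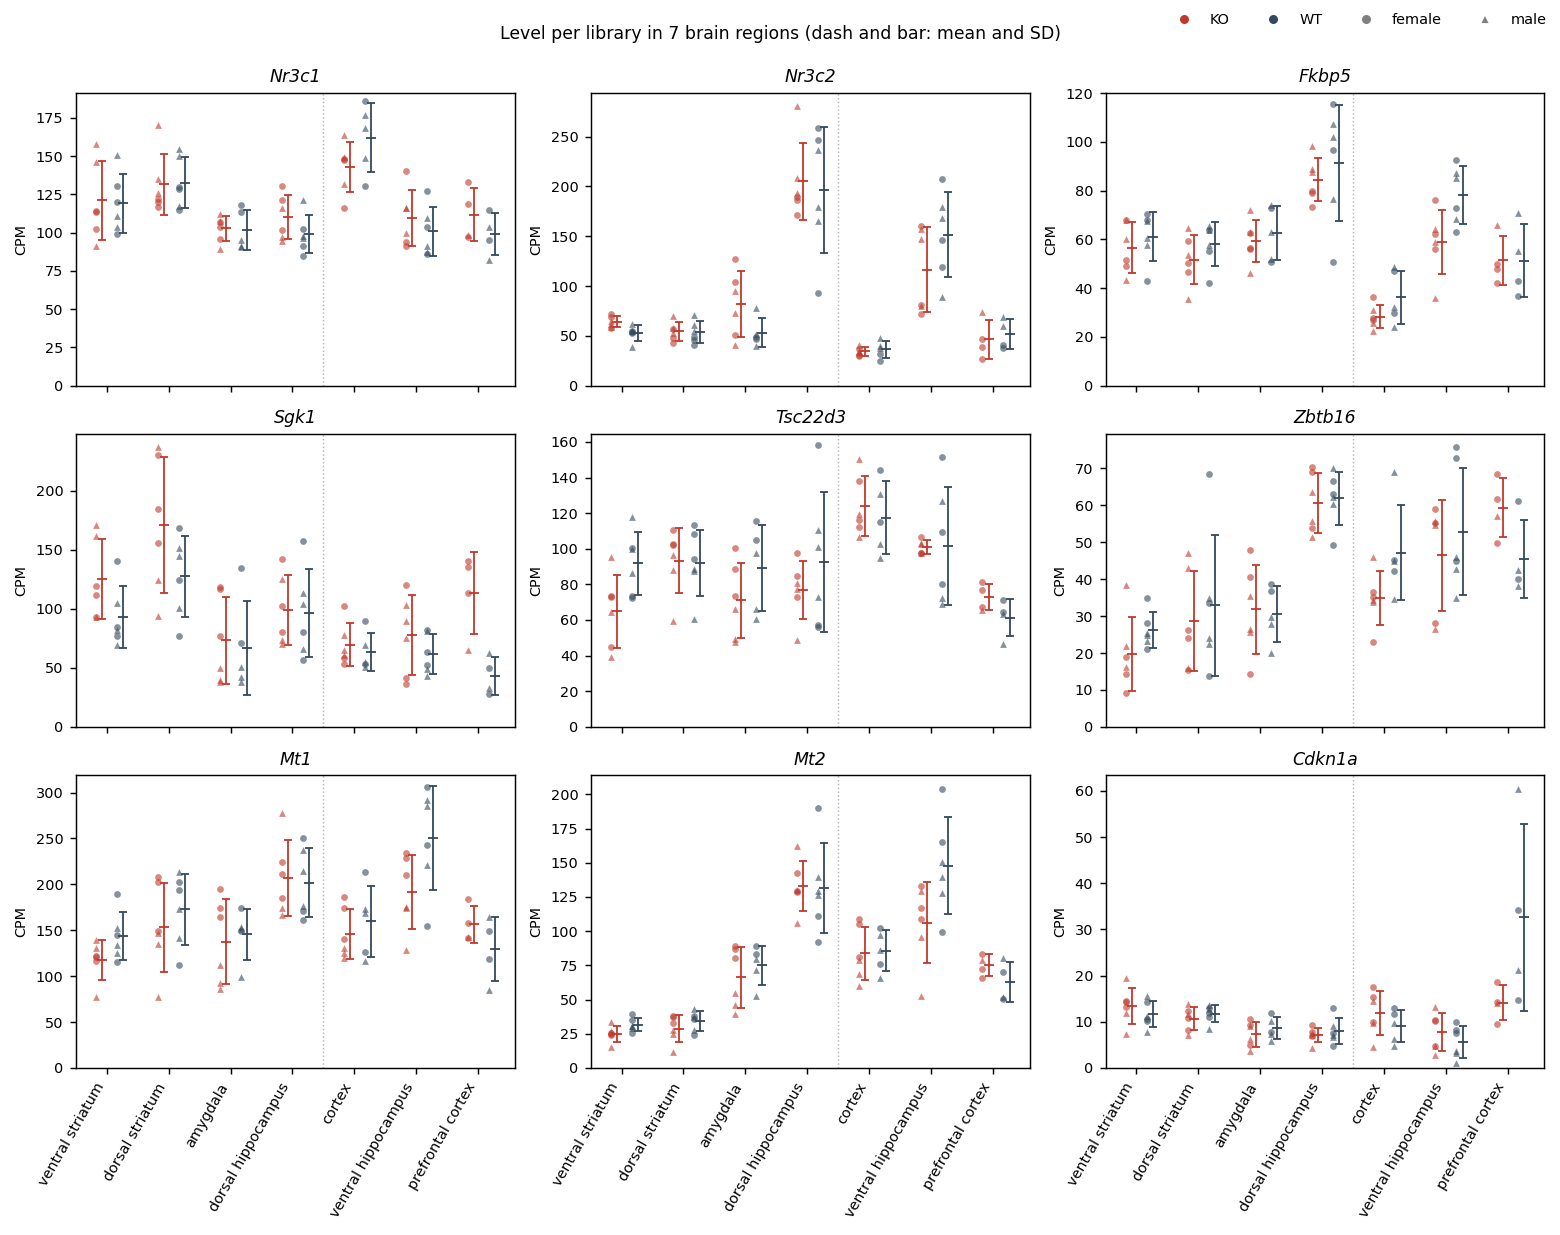
CPM of each of the 9 genes (panels) in every library, by region on the horizontal axis, with KO in red and WT in dark blue, circles for females and triangles for males, and a dash with a bar for the mean and SD of each genotype; the dotted line parts the deeper regions (left) from the shallower ones (right). Nr3c2 rises in both hippocampal columns, Mt2 is at most 43.1 CPM in every striatal library, and KO and WT points lie among each other in nearly every column, with Sgk1 in the prefrontal cortex apart.

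Other genes of the pathway were counted from 2 lists. Of 14 genes of receptor chaperones, cofactors and steroid metabolism, 13 were tested. In the dorsal hippocampus 5 were higher and 2 lower, where 26.8% of all genes were called higher and 25.8% lower. Hsd11b1, the enzyme that regenerates active corticosterone inside cells, was higher there by a log2 fold change of 2.19 (SE 0.172, edgeR adjusted p = 3.03e-14), and it was also higher in the ventral hippocampus (1.28, adjusted p = 6.8e-06) and the cortex (0.71, adjusted p = 0.00858) and lower in the ventral striatum (-1.51, adjusted p = 4.79e-07) and the prefrontal cortex (-1.99, adjusted p = 6.08e-07). The counts of this list were 2 higher and 3 lower in the amygdala (background 25.6% and 23.9%), 0 and 4 in the dorsal striatum (24.5% and 24.6%) and 1 and 3 in the ventral striatum (21.1% and 20.6%). They were 2 and 4 in the cortex (19.8% and 18.6%), 2 and 1 in the ventral hippocampus (13.3% and 12.9%) and 5 and 3 in the prefrontal cortex (18.7% and 17.9%).

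Of 21 further genes known as glucocorticoid-induced, 20 were tested in the deeper and 17 in the shallower set. In the dorsal hippocampus 9 were higher and 3 lower (background 26.8% and 25.8%), with a list median log2 difference of 0.23 where that of all genes was -0.008. The transcription factor gene Cebpd was higher there by 3.73 (SE 0.153, edgeR adjusted p = 2.9e-23) and the repressor gene Bcl6 by 1.66 (SE 0.099, adjusted p = 5.67e-18), while Angptl4 was lower (-0.85, adjusted p = 0.000792). In the ventral striatum 0 were higher and 7 lower (background 21.1% and 20.6%), led by Cebpd (-1.64, edgeR adjusted p = 6.67e-08). In the dorsal striatum 4 were higher and 4 lower (24.5% and 24.6%), with Pdk4 at 0.62 (edgeR adjusted p = 2.22e-05) and Cebpd at -1.75 (adjusted p = 5.61e-09). The counts were 2 higher and 7 lower in the amygdala (background 25.6% and 23.9%) and 7 and 3 in the cortex (19.8% and 18.6%). They were 4 and 2 in the ventral hippocampus (13.3% and 12.9%) and 1 and 5 in the prefrontal cortex (18.7% and 17.9%). In the cortex the phosphatase gene Dusp1 (0.78, edgeR adjusted p = 0.00066) and Fam107a (0.72, adjusted p = 7.97e-07) were higher, and in the prefrontal cortex Fam107a was lower (-0.68, adjusted p = 2.9e-05). As among the 7 induced members, no single order of regions held for the list.

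Between KO and WT, none of the 9 members passed the adjusted threshold in any region. The background was low as well: 0.00657% of genes were called for the amygdala, 0.00708% for the ventral striatum, 0.00689% for the dorsal striatum, 0.00947% for the cortex, 0.00690% for the dorsal and 0.00929% for the ventral hippocampus, in each case 1 gene, and 0.0925% (11 of 11894) in the prefrontal cortex. At an unadjusted p under 0.05, 3 members were found in the ventral striatum (7.29% of all genes), 2 in the amygdala (3.52%), 0 in the dorsal striatum (1.54%), 0 in the dorsal hippocampus (2.84%), 1 in the cortex (6.46%), 3 of the 8 tested in the ventral hippocampus (5.01%) and 2 in the prefrontal cortex (8.63%). DESeq2 called 1 member in the prefrontal cortex and 0 in the other 6 regions. The self-test on simulated data called 139 of 198 genes changed by a log2 of 1 in the ventral striatum and 115 of 199 in the prefrontal cortex. Changes smaller than a log2 of 1 were not simulated, so the self-test does not say how often they would be called.

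In the ventral striatum the members under the unadjusted threshold were Nr3c2, Tsc22d3 and Mt2. Nr3c2 had 58.3, 63.2 and 71.6 CPM (lowest, median and highest) in the 6 KO libraries and 38.7, 54.2 and 62.2 CPM in the 6 WT libraries, with a log2 fold change of 0.28 (SE 0.111, edgeR adjusted p = 0.651). Tsc22d3 had 39.4, 68.6 and 95.1 CPM in KO and 72.6, 93.2 and 118 CPM in WT (log2 -0.49, SE 0.184, edgeR adjusted p = 0.651). Mt2 had 15.0, 25.01 and 33.6 CPM in KO and 25.6, 30.9 and 39.2 CPM in WT (log2 -0.34, SE 0.154, edgeR adjusted p = 0.651). The ranges of the genotypes overlapped for all 3. Fkbp5 had 43.2, 55.9 and 68.1 CPM in KO and 42.8, 64.1 and 70.3 CPM in WT, a difference of -0.11 (edgeR adjusted p = 0.835). Astrocyte markers were at a lower level in KO for 7 of 7 here, 2 of them at an unadjusted p under 0.05 (summed 950 to 1933 CPM in KO and 1310 to 2593 CPM in WT). Striatal projection neuron markers were at a higher level in KO for 8 of 8 (median log2 0.47) and oligodendrocyte markers at a lower level for 11 of 11 (median -0.10), none at an unadjusted p under 0.05. The part of these markers in the Nr3c2, Tsc22d3 and Mt2 differences was not tested.

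The male ventral striatum, which the study's title names, was also fitted alone, and 0 members were called. Sgk1 had 161, 92.9 and 171 CPM in male KO mice 1, 2 and 10 and 105, 69.4 and 82.4 CPM in male WT mice 3, 12 and 13, with overlap (log2 0.75, SE 0.242, edgeR adjusted p = 0.493). The ventral striatum libraries of mice 10 and 13 are both among those with low striatal markers. In females alone Zbtb16 had 14.3, 18.9 and 9.20 CPM in KO mice 4, 5 and 6 and 21.2, 28.1 and 34.9 CPM in WT mice 11, 23 and 24 (log2 -1.05, SE 0.3), also not called, and in males its difference was 0.08. These single-sex values were picked after they were seen.

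The amygdala had Tsc22d3 and Mt2 under the unadjusted threshold as well. Tsc22d3 had 47.6, 69.9 and 100.5 CPM (lowest, median and highest) in the 6 KO libraries and 60.7, 97.9 and 116 CPM in the 5 WT libraries (log2 -0.39, SE 0.130, edgeR adjusted p = 0.993). Mt2 had 39.1, 67.6 and 89.4 CPM in KO and 52.4, 79.9 and 88.9 CPM in WT (log2 -0.29, SE 0.122, edgeR adjusted p = 0.993). Both overlapped between genotypes. Nr3c2 was at 41.2 to 127 CPM in KO and 39.5 to 77.8 CPM in WT (log2 0.60, edgeR adjusted p = 0.993), and Fkbp5 differed by -0.06. In these libraries astrocyte markers were at a lower level in KO for 6 of 7 (1 at an unadjusted p under 0.05), oligodendrocyte markers for 11 of 11 (median log2 -0.75) and choroid plexus markers were at a higher level for 8 of 8 (median log2 1.90), and their part in these differences was not tested.

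In the ventral hippocampus Fkbp5 and both metallothionein genes were at lower levels in KO at the unadjusted threshold. Fkbp5 had 36.01, 60.5 and 76.0 CPM in the 6 KO libraries and 63.0, 78.9 and 92.6 CPM in the 6 WT libraries (log2 -0.41, SE 0.160, edgeR adjusted p = 0.966). Mt1 had 128, 193 and 234 CPM in KO and 155, 264 and 306 CPM in WT (log2 -0.39, SE 0.17, edgeR adjusted p = 0.966). Mt2 had 52.8, 113 and 133 CPM in KO and 99.3, 145 and 204 CPM in WT (log2 -0.47, SE 0.186, edgeR adjusted p = 0.966). The genotypes overlapped for each, and astrocyte markers were at a lower level in KO for 6 of 7, none at an unadjusted p under 0.05 (summed 2238 to 3235 CPM in KO and 2202 to 3701 CPM in WT). Hippocampal markers were at a lower level in KO for 4 of 4 (median log2 -0.37) and microglial markers for 7 of 7 (-0.27), and oligodendrocyte markers were at a higher level for 11 of 11 (0.43), also none at an unadjusted p under 0.05. Striatal markers were at a higher level in KO for 6 of 6 tested (median log2 2.13), and mouse 6 is the library there with a high striatal sum. Without it the values were -0.41 for Fkbp5, -0.45 for Mt1 and -0.49 for Mt2, and the part of these markers in the differences was not tested. Cdkn1a was not tested there, because it did not pass the filter on low counts.

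In the cortex Zbtb16 had 23.1, 34.7 and 46.05 CPM in the 6 KO libraries and 34.5 to 69.1 CPM with a median of 44.98 in the 5 WT libraries, with overlap (log2 -0.43, SE 0.185, edgeR adjusted p = 0.747). Fkbp5 had 22.3 to 36.3 CPM in KO and 24.1 to 48.5 CPM in WT (log2 -0.37, edgeR adjusted p = 0.772). Oligodendrocyte markers were at a higher level in KO cortex for 9 of 11 (median log2 0.33, 3 at an unadjusted p under 0.05). Cortical markers were at a lower level for 4 of 4 (median -0.19, 1 under it). The part of these markers in the Zbtb16 and Fkbp5 values was not tested. In the dorsal striatum the member with the smallest unadjusted p was Sgk1, with 93.7 to 237 CPM in KO and 76.5 to 168 CPM in WT (log2 0.43, SE 0.24), and Fkbp5 differed by -0.15. Oligodendrocyte markers were at a higher level in KO there for 11 of 11 (median log2 0.25, none at an unadjusted p under 0.05, summed 5572 to 18316 CPM in KO and 4821 to 17099 CPM in WT), and their part in the Sgk1 value was not tested. In the dorsal hippocampus Fkbp5 had 73.3 to 98.4 CPM in KO and 50.9 to 115 CPM in WT, a log2 difference of -0.12. The lowest WT value was that of mouse 23, whose library had a low hippocampal marker sum (253 CPM). Genotype ranges overlapped for each of these genes.

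The prefrontal cortex held the largest KO difference of a member, in Sgk1. Its 4 KO libraries had 113 CPM in female mouse 4, 135 in female mouse 5, 141 in female mouse 6 and 65.0 in male mouse 1. Its 4 WT libraries had 27.8 CPM in female mouse 11, 50.2 in the library labelled female mouse 23, 62.3 in male mouse 3 and 32.8 in male mouse 12. Every KO library was above every WT library, a separation found for 3.91% of the genes tested in this region, while over the other 6 regions 0.231% of gene tests were separated and no member among them. These shares are not comparable in size, since 4 libraries stood against 4 in the prefrontal cortex and 6 against 6 or 5 elsewhere. The log2 fold change was 1.29 (SE 0.269), and its edgeR adjusted p of 0.0693 missed the threshold.

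This value sat near the threshold and moved over it with the settings. The DESeq2 Wald test gave 1.29 (adjusted p = 0.00466), edgeR without a filter on low counts 1.29 (adjusted p = 1.97e-08), edgeR on females alone 1.77 (SE 0.237, adjusted p = 0.00677), edgeR without mouse 1 1.76 (adjusted p = 0.0161) and without mouse 3 1.57 (adjusted p = 0.00508). Without the library labelled female mouse 23 it was 1.32 (edgeR adjusted p = 0.0975), without the prefrontal libraries of mice 1 and 5 it was 1.73 (adjusted p = 0.114), and without mouse 11 it was 0.93 (adjusted p = 0.502). All genes moved with these settings as well: edgeR called 11 of 11894 with the filter and 367 of 23179 without it. The male KO group holds 1 library, so males alone could not be tested.

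Cell type markers also differed between the KO and WT prefrontal dissections. The summed CPM of 11 oligodendrocyte markers, myelin genes such as Mbp, was 8168, 11431 and 6927 in female KO mice 4, 5 and 6 and 2560 in male KO mouse 1, against 1755, 3322, 2022 and 2583 in WT mice 11, 23, 3 and 12. All 11 were at a higher level in KO with an unadjusted p under 0.05 (median log2 1.37, 0 called). All 8 striatal projection neuron markers were at a higher level in KO (median log2 2.43, 4 called). Their sums were 573, 1656 and 595 CPM in female KO mice 4, 5 and 6, 1174 in male KO mouse 1 and 184 to 322 CPM in WT. Mouse 1 thus had a high striatal sum beside the lowest Sgk1 value of the KO libraries. Astrocyte and endothelial markers were at a lower level in KO for 7 of 7 each, 2 of each at an unadjusted p under 0.05 (medians -0.26 and -0.39). The part of these dissection differences in the Sgk1 value was not tested.

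**Figure D3:**
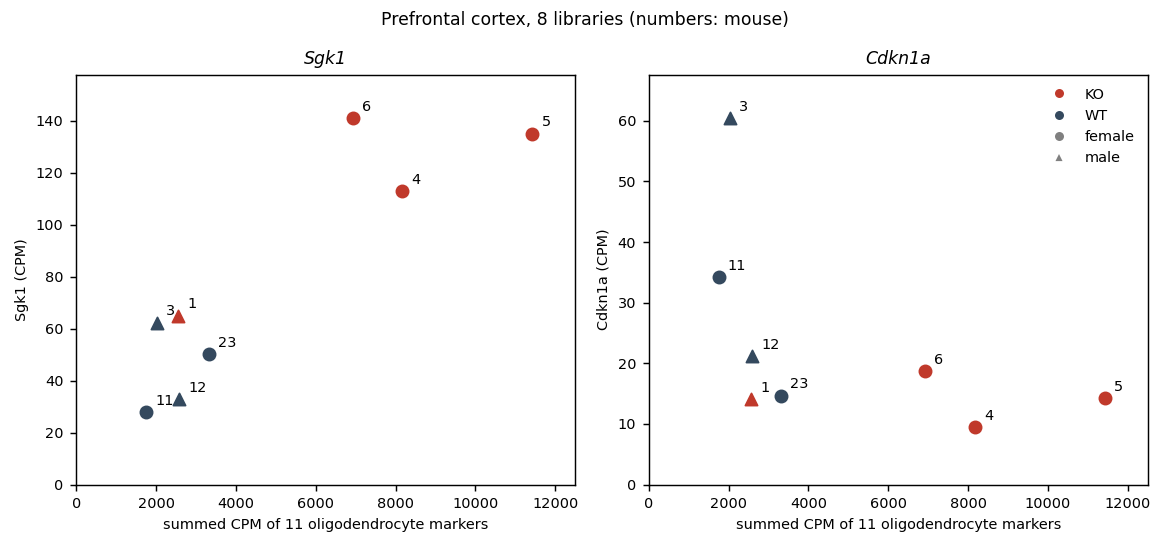
Sgk1 (left) and Cdkn1a (right) in CPM against the summed CPM of 11 oligodendrocyte markers in the 8 prefrontal cortex libraries, with KO in red, WT in dark blue, circles for females, triangles for males and the mouse number beside each point. The 3 female KO mice have both the highest Sgk1 values (113 to 141 CPM) and the highest marker sums (6927 to 11431 CPM), and male KO mouse 1, at 2560 CPM, has Sgk1 at 65.0 CPM beside WT mouse 3 at 62.3 CPM.

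Cdkn1a was at a lower level in the KO prefrontal cortex at the unadjusted threshold. Its KO libraries had 9.504 CPM in female mouse 4, 14.2 in female mouse 5, 18.7 in female mouse 6 and 14.1 in male mouse 1, or 9 to 23 counts. The WT libraries had 34.3 CPM in female mouse 11, 14.7 in the library labelled female mouse 23, 60.4 in male mouse 3 and 21.2 in male mouse 12, and the ranges overlapped. The log2 fold change was -1.08 (SE 0.372, edgeR adjusted p = 0.358). Without the filter on low counts Cdkn1a was called (-1.08, edgeR adjusted p = 0.00986), and without the prefrontal libraries of mice 1 and 5 it was -0.83 (adjusted p = 0.947). Fkbp5 had 42.2 to 65.9 CPM in KO and 36.7 to 70.8 CPM in WT (log2 0.17, edgeR adjusted p = 0.873), so the KO libraries that had high Sgk1 were not high in Fkbp5.

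Over all 7 regions, with the mouse as a random effect in limma, 0 of 9 members were called, where 0.0347% of all genes were (6 of 17275). At an unadjusted p under 0.05 there were 4 of 9 members, where 6.11% of all genes were. Sgk1 was the member at a higher level in KO (log2 0.30, SE 0.106, limma adjusted p = 0.749). Tsc22d3 (-0.17, SE 0.076, limma adjusted p = 0.805), Mt1 (-0.15, SE 0.072, adjusted p = 0.805) and Mt2 (-0.20, SE 0.077, adjusted p = 0.787) were at a lower level. The other members did not reach an unadjusted p under 0.05. Of these, the receptor genes differed by 0.04 (Nr3c1, SE 0.049) and 0.14 (Nr3c2, SE 0.095). Fkbp5 differed by -0.12 (SE 0.069), Zbtb16 by -0.13 (SE 0.113) and Cdkn1a by -0.10 (SE 0.107). The members' median was -0.12, where that of all genes was 0.005. The direction turned for Nr3c1 and Mt1 in females alone, for Zbtb16 in males alone, and for Nr3c2 and Tsc22d3 in the 3 shallower regions alone. Among the 20 further induced genes tested, 0 were called and 6 had an unadjusted p under 0.05, with 5 at a higher and 15 at a lower level in KO, and among the 13 chaperone and cofactor genes 0 were called and 1 was under it. Astrocyte markers were at a lower level in KO for 7 of 7, 3 of them at an unadjusted p under 0.05 (median log2 -0.17). Striatal projection neuron markers (median 0.52, 1 at an unadjusted p under 0.05) and choroid plexus markers (median 0.81, 0 under it) were at a higher level for 8 of 8 each, and oligodendrocyte markers for 9 of 11 (median 0.07, 0 under it). The part of these markers in the Sgk1, metallothionein and Tsc22d3 values was not tested.

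**Figure D4:**
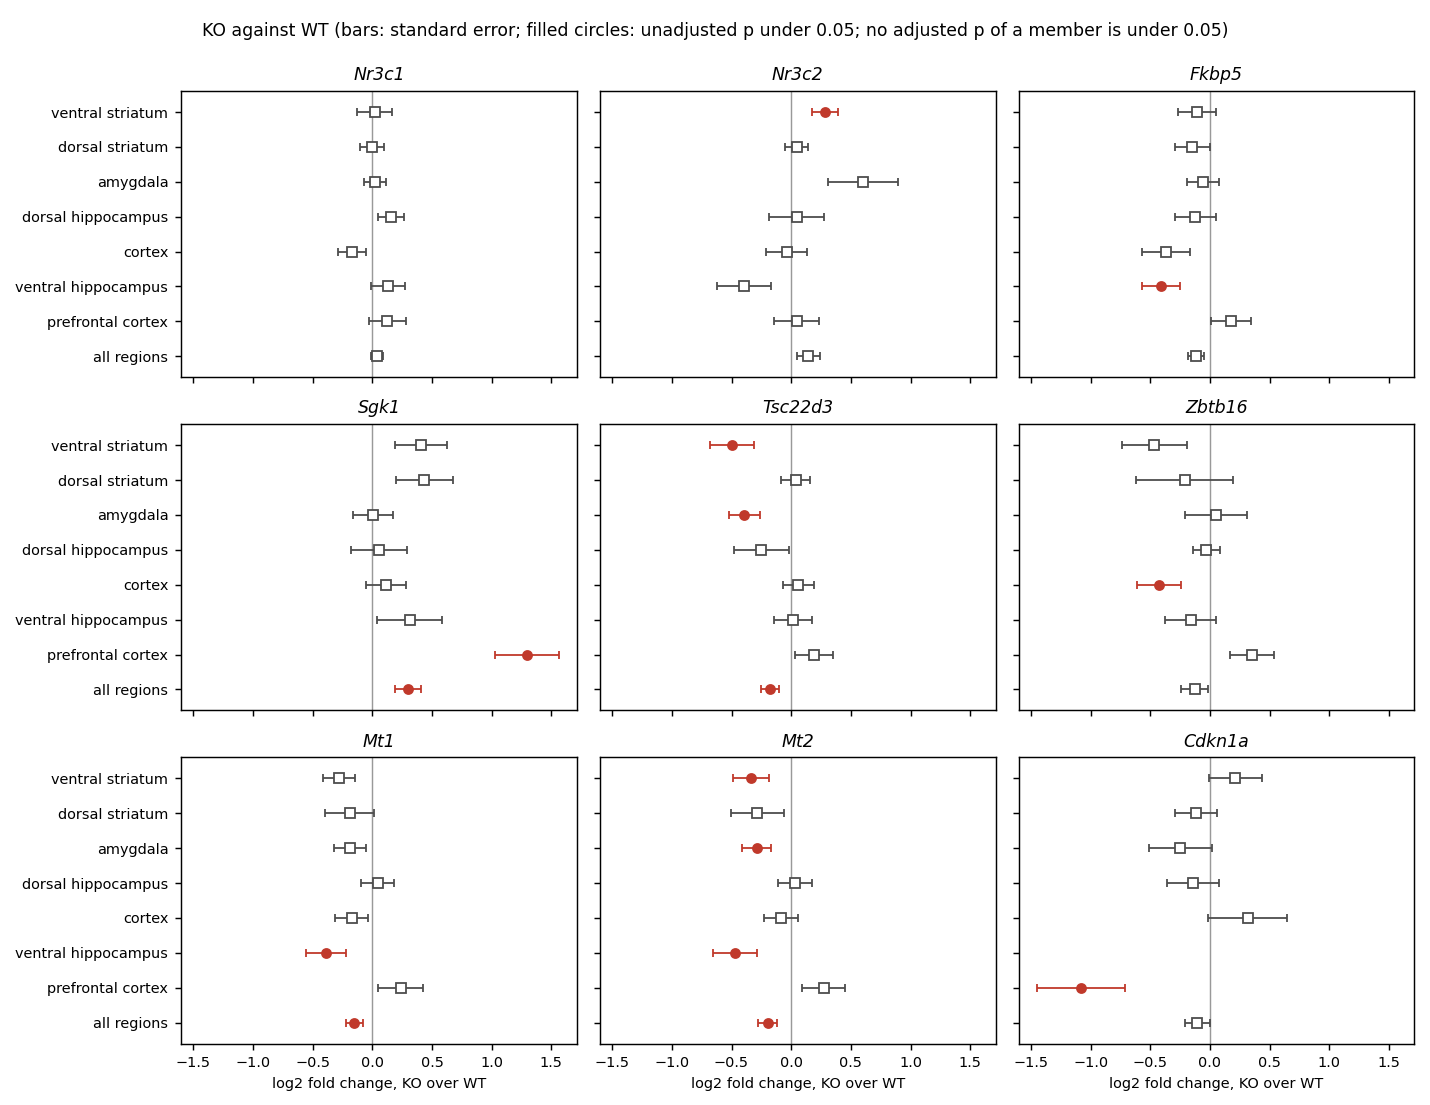
Log2 fold change of KO over WT with its standard error for each of the 9 genes (panels) in the 7 regions and over all regions (rows); filled red circles have an unadjusted p under 0.05 and open squares do not, and no adjusted p is under 0.05. Most points lie close to 0, Sgk1 in the prefrontal cortex lies at 1.29 and Cdkn1a there at -1.08, and the filled circles of Tsc22d3 (3) and Mt2 (4) are all left of 0.

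The KO effect did not differ between the sexes for any member at the adjusted threshold, and 0% of all genes passed it (0 of 17275). At an unadjusted p under 0.05 there were 3 of 9 members, where 13.4% of all genes were. The effect in females minus that in males was 0.35 for Mt1 (SE 0.134, limma adjusted p = 0.248), 0.30 for Mt2 (SE 0.145, adjusted p = 0.349) and -0.43 for Zbtb16 (SE 0.217, adjusted p = 0.37). In the same contrast astrocyte markers were above 0 for 7 of 7 (median 0.23, 2 at an unadjusted p under 0.05), choroid plexus markers for 8 of 8 (median 2.40, 4 under it), striatal markers for 8 of 8 (median 0.93, 1 under it) and oligodendrocyte markers for 11 of 11 (median 0.26, 0 under it), and general neuron markers were below 0 for 4 of 4 (median -0.36, 3 under it). Their part in these differences was not tested. In the ventral hippocampus the Mt1 difference was -0.76 in males (edgeR adjusted p = 0.291) and -0.03 in females. Without the 8 libraries that stood apart by striatal markers the Zbtb16 value was -0.09 (limma adjusted p = 0.884). Leaving out only the library labelled female with Ddx3y was not run for this contrast.

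Whether a member was high or low in the same mouse in several regions was tested over the 8 mouse terms within sex and genotype. The edgeR test called 0 of 9 members, where 0.160% of all genes were called (25 of 15663), and 5 members had an unadjusted p under 0.05, where 7.76% of all genes did. These were Fkbp5 (edgeR adjusted p = 0.357), Sgk1 (adjusted p = 0.366), Tsc22d3 (adjusted p = 0.381), Cdkn1a (adjusted p = 0.434) and Zbtb16 (adjusted p = 0.62), all of them induced genes. The receptor genes and the metallothionein genes did not reach that level, and Mt1 and Mt2 ranked 13540 and 13074 by p. Without the filter on low counts 5 members were called, and so were 1742 of 34743 genes. The spread between libraries of a group, as the SD of log2(CPM + 1) in the deeper regions, was 0.19 for Nr3c1, 0.30 for Fkbp5, 0.32 for Mt1 and for Mt2, 0.38 for Nr3c2 and for Tsc22d3, 0.40 for Cdkn1a, 0.45 for Sgk1 and 0.51 for Zbtb16, at percentiles from 34.3 to 90.5 among 11779 genes.

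Single mice stood out for single genes. Averaged over the 4 deeper regions, Fkbp5 was above its group mean by 0.31 in female WT mouse 24, in 4 of 4 libraries, and below it by -0.27 in female WT mouse 23. The dorsal striatum library of mouse 23 is among those that stood apart by striatal markers. Its dorsal hippocampus library had a hippocampal marker sum of 253 CPM, against 525 to 1016 CPM in the others. The part of these dissections in the Fkbp5 value was not tested. Sgk1 was at 0.36 in male KO mouse 1 and 0.34 in female WT mouse 24, and at -0.29 in male WT mouse 12, where all 4 libraries were below the group. Tsc22d3 was at -0.42 in male KO mouse 2, again with all 4 libraries below. Zbtb16 was at -0.47 in female KO mouse 6 and in female WT mouse 11, and Cdkn1a at -0.53 in male KO mouse 10, which has 2 of the libraries that stood apart by striatal markers. Mouse 24 and mouse 1 were high in both Fkbp5 and Sgk1, and mouse 2 was low in Tsc22d3 without being low in Cdkn1a (0.26).

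**Figure D5:**
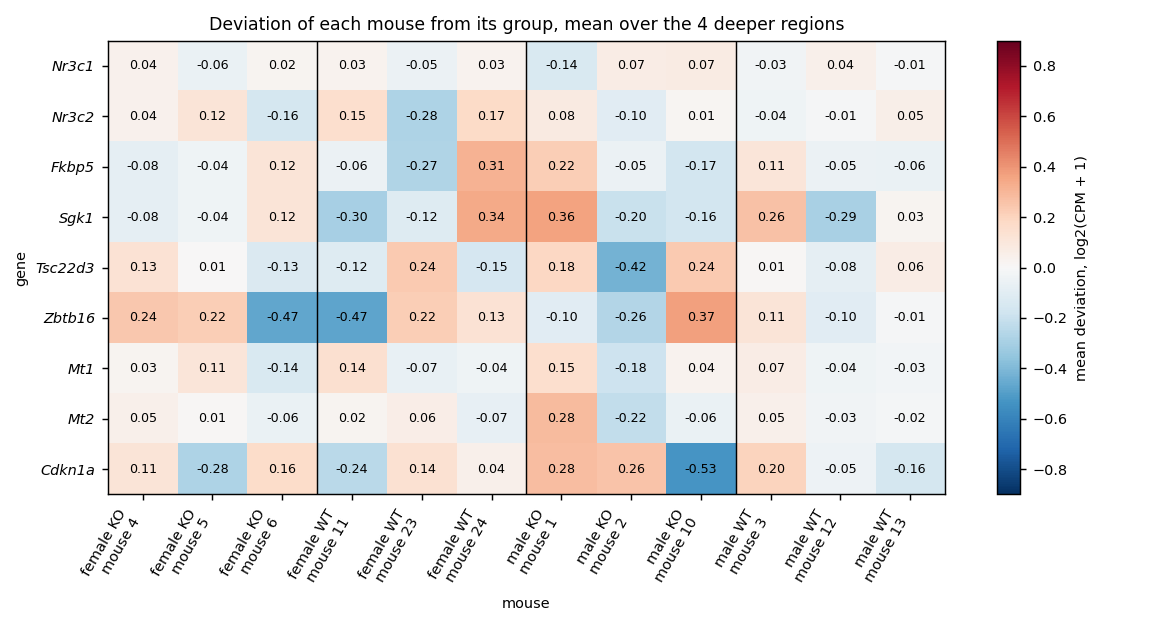
Heat map of the mean deviation of each mouse (columns) from the mean of its sex, genotype and region in log2(CPM + 1), averaged over the 4 deeper regions, for the 9 genes (rows); black lines part the 4 groups of 3 mice and colour runs from blue (below) to red (above). The Nr3c1 row lies between -0.14 and 0.07, Cdkn1a in mouse 10 is lowest at -0.53, and Fkbp5 and Sgk1 are both red in mice 1 and 24.

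Between mice the correlations of member pairs went in both directions, and none passed the adjusted threshold. Among the 36 pairs, Pearson's r over the 12 mice was above 0 for 21 and below 0 for 15, with a median of 0.13, and 0 pairs had an adjusted p under 0.05 by exact enumeration of every order of mice within their groups. Fkbp5 and Sgk1, one of the 3 pairs with the largest r, had r = 0.80 (two-sided exact permutation p = 0.0293, adjusted over 36 pairs 0.576) and Spearman's rho = 0.65 (exact p = 0.0764). Without mice 1 and 24, the farthest from the median, r was 0.59. Mt1 and Mt2 had r = 0.72 (exact permutation p = 0.064, adjusted 0.576) and rho = 0.56 (exact p = 0.167), and without mice 1 and 2 r was 0.41. Nr3c1 and Mt2 had r = -0.83 (exact permutation p = 0.0494, adjusted 0.576) and rho = -0.73 (exact p = 0.0509). Without mice 1 and 5, the farthest from the median, r was -0.66 with the deviations kept as they were. When mouse 1 was left out and the group means were recomputed, r was -0.36. The smallest p this enumeration can give is 0.000772. After adjustment over 36 pairs, a lone pair could pass the threshold only close to that value. Finding 0 such pairs therefore does not show that the members vary separately.

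Between single libraries, as a description, the metallothionein genes were the closest pair. After group means were removed, Mt1 and Mt2 had r = 0.91 over the 47 deeper libraries and 0.86 over 30 of the shallower ones, points that share mice, depth and dissections. Genes of most like pattern among 11779 in the deeper libraries were Ip6k2, Ccdc112 and C2cd2l for Fkbp5 (r = 0.89, 0.86 and 0.85), Arrdc2, Pdk4 and Adipor2 for Sgk1 (0.83, 0.82 and 0.77), and Mfn1, Glul and Tmem106c for Tsc22d3 (0.87, 0.86 and 0.85). Arrdc2 and Pdk4 are both in the list of 21 further induced genes. For Nr3c1 they were Pakap, Ccdc186 and Gm16485 (r = 0.72, 0.69 and 0.66), for Nr3c2 Slc44a5, Rapgef5 and Ptpra (0.82, 0.82 and 0.81), for Zbtb16 Dyrk2, Nfix and Septin9 (0.84, 0.83 and 0.82), and for Cdkn1a Slc32a1, Chn2 and Entpd3 (0.71, 0.70 and 0.70). For the metallothionein genes they were, after each other, the ribosomal protein genes Rpl35 and Rpl23a for Mt1 (0.88 and 0.88) and Rpl23a and Rpl28 for Mt2 (0.88 and 0.86).

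Levels of cell type markers varied with the members between the same libraries. Over the 47 deeper libraries the summed astrocyte markers had r = 0.75 with Mt1, 0.69 with Mt2 and 0.74 with Tsc22d3, and over the 30 shallower ones 0.84, 0.76 and 0.37. General neuron markers had -0.59 with both Mt1 and Mt2 in the deeper libraries, and -0.68 and -0.665 in the shallower. Microglial markers had 0.58 and 0.57 with them in the deeper, and 0.64 and 0.48 in the shallower. Endothelial markers had 0.58 with Tsc22d3 in the deeper and -0.06 in the shallower libraries. Oligodendrocyte markers had r = 0.64 with Sgk1 in the deeper and 0.61 in the shallower libraries. With Sgk1, striatal projection neuron markers had 0.38 in the deeper and 0.66 in the shallower libraries, and choroid plexus markers 0.61 and 0.18. Striatal projection neuron markers had r = -0.63 with Zbtb16 in the deeper and -0.57 in the shallower libraries, and cortical markers 0.62 and -0.26. Astrocytes are a known site of metallothionein expression, and what share of each member's spread goes with the dissected cell mixture was not tested.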

How the data were processed

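Raw read counts per gene symbol were deposited by the authors in a table for each sex, as whole numbers without normalization. The submitters' processing notes name STAR 2.5.2a, SAMtools 1.1, HTSeq 0.6.1, DESeq2, R 4.0.2 and the build GRCm38 (mm10), without their roles; strand setting and annotation are not given in the sources used here. All 78 columns were matched to samples by label (0 columns not used). The members and the gene lists were chosen with earlier results of these data known.

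Levels are CPM by column total. KO and WT were compared per region with edgeR 4.0.16 (quasi-likelihood test, TMM, filterByExpr with a minimum count of 10 and total of 15, sex as a term; R 4.3.3), and over all regions and for the sex interaction with limma 3.58.1 (voom, duplicateCorrelation with the mouse as random effect, correlation 0.0180). Regions were compared with edgeR within the deeper and the shallower set, and differences between mice with an edgeR F test of 8 mouse terms. p-values were adjusted by Benjamini-Hochberg over all genes tested, with a threshold of 0.05. Correlations used log2(CPM + 1) of the 4 deeper regions averaged per mouse. Positions and exon lengths are from GENCODE M21 (GRCm38). The mice are separate animals; the fits were tested on simulated data.

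Named were all 9 members by region and over all regions, in each KO comparison Fkbp5 and members with an unadjusted p under 0.05, the 3 pairs with the largest r, 3 genes of like pattern per member (mean of at least 5 CPM), and at most 3 called genes per list and comparison; further values, of Sgk1 in the dorsal striatum and of Nr3c2 in the amygdala among them, were named after they were seen. Libraries of different regions pair by mouse per the labels. Deviations of same-mouse libraries correlated weakly (mean r 0.032 over 69 pairs in the deeper set, from -0.312 to 0.536, and -0.003 over 24 in the shallower). Alternatives were DESeq2 size factors, no low-count filter, the DESeq2 1.42.0 Wald test, each sex alone, each depth set alone, the mouse as block or ignored, sums per mouse, TMM-scaled CPM, a pseudocount of 0.5, leaving out the library labelled female with Ddx3y, and leaving out each mouse. Leaving out the 8 libraries that stood apart by striatal markers was chosen after seeing the data. Replicate libraries of a group differed beyond sampling noise (chi-square per gene 1.64 to 74.3 over 73 pairs). Floors and counts cover counting error only, since reads carry no molecular identifiers.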

Additional observations from a re-analysis of the deposited data

How the results depend on the processing

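Of 2252 alternative values for 190 results, 2152 were unchanged. For fold changes this means the same direction and side of the threshold, and for other values a shift within a set margin. Of the rest, 26 lost and 11 gained a call, 57 reversed and 6 moved beyond the margin. The count of members called between KO and WT in the prefrontal cortex was 0, and was 2 without the low-count filter, 1 with the DESeq2 Wald test, 1 in females alone, and 0 to 1 when each mouse was left out. Between mice of a group it was 0 and was 5 without the filter. In the other KO comparisons it stayed 0 in every setting run.

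None of the reversed values was called in the fit as reported. Over all regions the KO difference was -0.005 for Nr3c1 and 0.026 for Mt1 in females alone, 0.075 for Zbtb16 in males alone, and -0.228 for Nr3c2 and 0.086 for Tsc22d3 in the 3 shallower regions alone. The sex difference of Nr3c2 was 0.060 in the 4 deeper regions alone. Without the 8 libraries set apart by striatal markers (chosen after seeing the data), the sex difference was 0.051 for Nr3c2, -0.052 for Fkbp5 and -0.133 for Cdkn1a. Without them the regional value was -0.008 (Sgk1, ventral striatum), 0.026 (Zbtb16, amygdala), 0.014 (Mt2, cortex), -0.071 (Sgk1, ventral hippocampus) and -0.105 (Fkbp5, prefrontal cortex). Sgk1 in the ventral hippocampus was -0.003 without the library labelled female with Ddx3y. With the mouse as replicate block, which follows the pairing of regions by animal, it was -0.054, and Fkbp5 in the ventral striatum gained a call while Mt1 in the amygdala lost one; the block changed no other regional call of a member.

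Leaving out each mouse gave these ranges where a sign turned: KO difference of Fkbp5 -0.135 to 0.021 (amygdala) and -0.231 to 0.006 (dorsal hippocampus), and of Cdkn1a over all regions -0.167 to 0.008; sex difference of Nr3c2 -0.189 to 0.064, Fkbp5 -0.090 to 0.242, Sgk1 -0.079 to 0.342, Tsc22d3 -0.072 to 0.220 and Cdkn1a -0.206 to 0.200. Regional values ranged for Sgk1 from -0.017 to 0.156 (ventral striatum), -0.112 to 0.075 (dorsal hippocampus), -0.141 to 0.093 (cortex), -0.044 to 0.155 (ventral hippocampus) and -0.168 to 0.147 (prefrontal cortex). They ranged for Mt2 from -0.098 to 0.004 and for Cdkn1a from -0.322 to 0.076 in the cortex, and for Fkbp5 from -0.078 to 0.135 in the prefrontal cortex. The cause of these changes was not tested. With 1 male KO library, males alone could not be fitted in the prefrontal cortex. The 31 shallower libraries have a floor of up to 4.76 CPM, which limits what can be said of Cdkn1a there.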
